A study of Mus musculus with 4 samples.

Results

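Cytokine receptor chains and their feedback regulators were described in human lymphocytes of humanised mice, as 10 genes chosen by name from the 33538 human genes of the count matrices. The chains were IL7R, IL2RB, IL2RG, IL4R, IL21R, IL6R, IL6ST and IL10RA, and the regulators were SOCS3 and CISH. Their levels were taken from cell barcodes with over 50% of unique molecular identifiers (UMIs, which count captured molecules) on human genes, of which 17046 were kept after quality control. Among these, 12523 were T-like, 2681 B-like and 60 NK-like cells.

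Lymphocytes read interleukins through receptors that share chains. IL2RG, the common gamma chain, pairs with IL7R, IL4R, IL21R or IL2RB to form the receptors for IL-7, IL-4, IL-21 and IL-2 or IL-15, while IL6ST (gp130) is the signalling partner of IL6R, and IL10RA binds IL-10 together with a second chain. The receptors signal through Janus kinases (JAKs) and STAT transcription factors, which switch on SOCS3 and CISH, and their proteins then dampen the same signalling. In naïve and memory T cells IL7R carries the IL-7 signal for survival, and in NK cells IL2RB carries IL-15 signals.

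The cells came from huNSG-SGM3 mice, an immunodeficient strain on a NOD.Cg background (MloySzJ) with the alleles Prkdcscid and IL2rgtm1Wjl and the transgene Tg(CMV-IL3,CSF2,KITLG)1Eav. These hosts carry a targeted allele of the gamma chain gene themselves, express human IL3, CSF2 and KITLG from the CMV promoter, and were irradiated and engrafted with human cord blood stem cells. There were 4 libraries of sorted human CD45+ cells, all given a host age of 15 weeks, and each was pooled from several animals. Naïve blood came from male hosts without surgery and sham blood from male hosts 7 days after a laminectomy at T9. SCI blood and SCI cord came from male and female hosts 7 days after spinal cord injury (SCI) at T9, so that host sex and injury cannot be told apart. With 1 library per condition there were no replicates and no test between conditions. Intervals are at 95% and cover counting error only.

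The libraries held 34161760, 36007208, 36487994 and 4206461 UMIs in the order of naïve blood, sham blood, SCI blood and cord, and pairs of libraries shared 0 to 10 human cell barcodes. Mouse barcodes held 0, 9, 2 and 6 UMIs of the mouse Il2rg gene, and whether its 3′ end lies outside the altered part was not checked. In each blood library, all 6 restricted T cell markers were at least 2-fold higher in T-like than in B-like cells and all 6 restricted B cell markers at least 2-fold lower. T-like cells numbered 4198, 3671 and 4589 in naïve, sham and SCI blood and 65 in the cord, with median depths of 3515, 5042, 4552 and 7697 UMIs. B-like cells numbered 1193, 572, 907 and 9, and NK-like cells 18, 12, 28 and 2. In NK-like cells of naïve, sham and SCI blood the restricted NK cell markers summed to 1507, 2534 and 2487 CPM, against 19.3, 1.53 and 8.81 CPM in T-like cells, and in naïve blood they also held 547.9 CPM of the restricted B cell markers. Levels are given as CPM, that is, the counts of a gene summed over the cells of a class and scaled to a common total that leaves out ribosomal and mitochondrial genes. The 3′ counts are not scaled to transcript length, so that levels were compared between cells and libraries and not between genes.

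Among the 10 genes, 9 were at least 2-fold higher in T-like than in B-like cells in each of the 3 blood libraries, and none was at least 2-fold higher in B-like cells. Over all genes tested, 10% met the first condition and 8.6% the second. The exception was IL2RG, which both classes carried at similar levels. The median log2 ratio of T-like over B-like cells was 2.32, 2.40 and 2.48 for the 10 genes in naïve, sham and SCI blood, against 0.02, 0.01 and 0.03 over all genes. The classes were built from these cells, so that differences between classes and clusters are descriptions and carry no test.

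**Figure D1:**
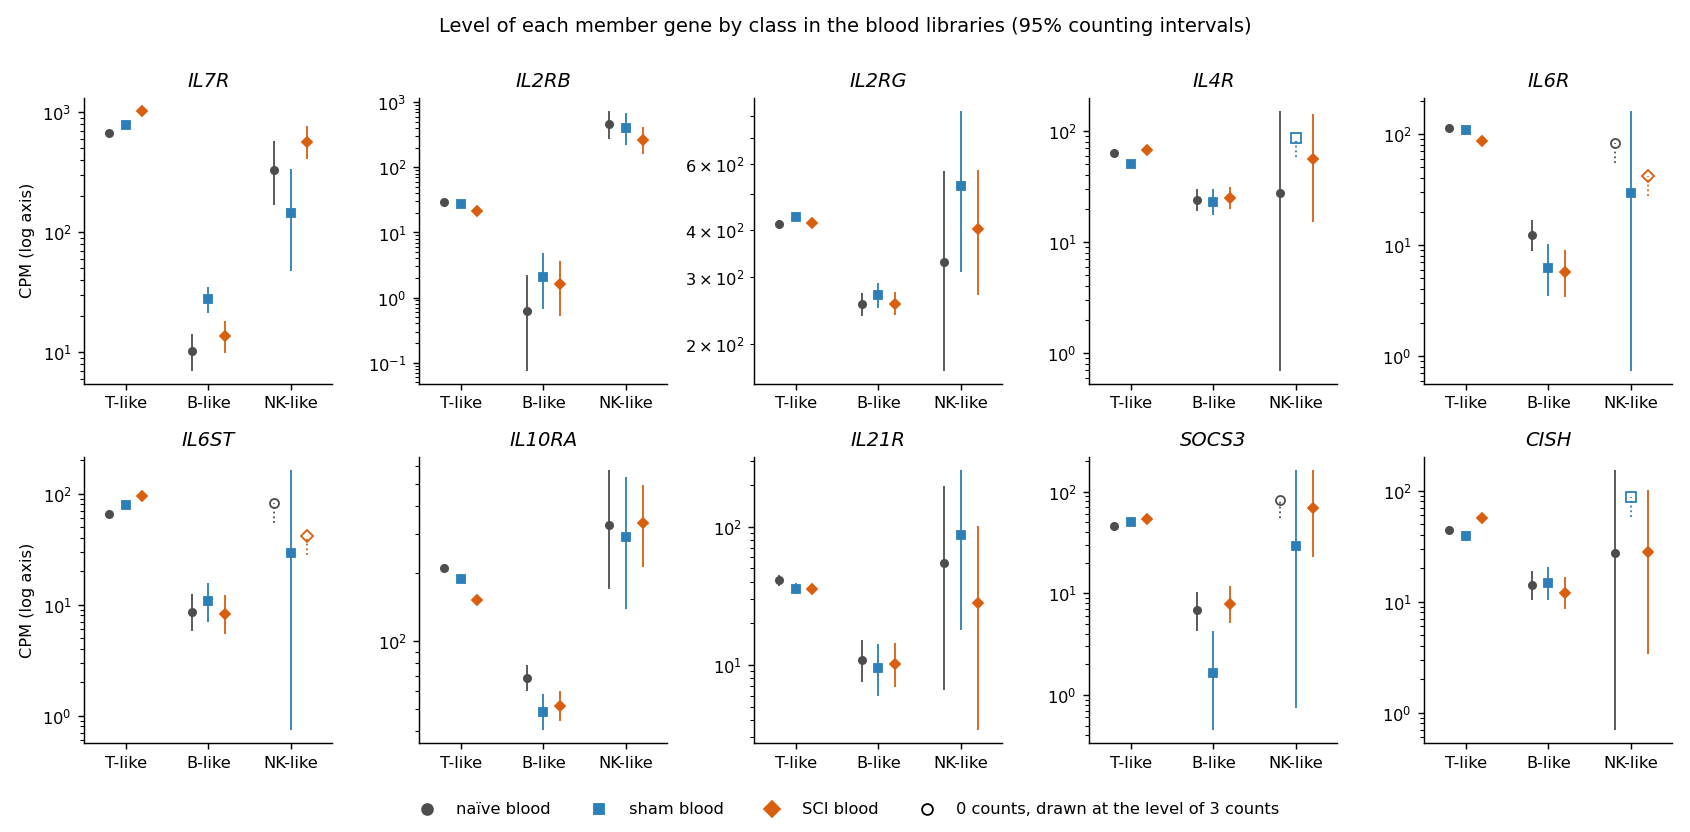
Level of each of the 10 genes in CPM (log axis) in T-like, B-like and NK-like cells of naïve, sham and SCI blood, with exact 95% Poisson intervals; open symbols mark 0 counts and are drawn at the level of 3 counts. T-like cells lie above B-like cells in every panel, IL2RG shows the smallest gap, and IL2RB is highest in NK-like cells.

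IL7R, which binds IL-7, was among the genes with the widest gap between T and B cells. Its level in T-like cells was 670.3, 789.9 and 1017 CPM in naïve, sham and SCI blood, against 10.2, 27.6 and 13.7 CPM in B-like cells. The log2 ratio of T-like over B-like cells was 6.02 [5.55, 6.58], 4.83 [4.49, 5.21] and 6.20 [5.79, 6.69]. After each cell was thinned to 1000 UMIs, IL7R was detected in 29.6%, 31.6% and 40.6% of T-like cells, and without thinning in 51.5%, 60.7% and 70.8%. In B-like cells the thinned shares were 0.838%, 0.699% and 0.772%.

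The IL7R signal in B-like cells lay within the range that T cell markers reached there. It amounted to 1.52%, 3.49% and 1.34% of the T-like level in naïve, sham and SCI blood. CD3D, a T cell receptor component that B cells lack, reached 0.99%, 1.04% and 1.51%, and TRAC, the alpha chain constant gene, 1.80%, 3.05% and 2.48%. Over all 6 restricted T cell markers the range was 0.909% to 14.3%, 1.04% to 13.03% and 0.893% to 17.0%, each time with TRBC2 highest. In sham blood IL7R lay above all of these markers except TRBC2. In sham blood 16 of the 67 IL7R counts of B-like cells lay in 1 cell. Expression of IL7R in B-like cells could thus not be told apart from RNA of other cells at this depth.

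IL2RG, the shared chain, was the most evenly spread. T-like cells held 414.5, 433.0 and 417.9 CPM in naïve, sham and SCI blood. B-like cells held 254.9, 268.9 and 255.8 CPM, which was 61.5%, 62.1% and 61.2% of the T-like level and far above the 3.13% to 4.02% reached there by the summed T cell markers. The log2 ratio of T-like over B-like cells was 0.70, 0.69 and 0.71, with intervals between 0.57 and 0.82. Thinned shares of cells with a UMI were 26.3%, 26.8% and 24.9% in T-like and 16.5%, 17.3% and 15.0% in B-like cells.

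IL4R, which binds IL-4 and IL-13, and IL21R, which binds IL-21, were found in both classes. IL4R lay at 63.1, 50.7 and 66.9 CPM in T-like cells of naïve, sham and SCI blood and at 24.1, 23.1 and 25.1 CPM in B-like cells, with log2 ratios of 1.38, 1.12 and 1.41. IL21R lay at 41.1, 35.6 and 35.2 CPM in T-like and at 10.8, 9.47 and 10.2 CPM in B-like cells, with log2 ratios of 1.91, 1.88 and 1.77. The B-like levels were 37.5% to 45.5% (IL4R) and 26.3% to 28.8% (IL21R) of the T-like ones, above each of the 6 T cell markers.

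The IL-6 receptor pair was mainly a T-like signal. IL6R, the chain that binds IL-6, was at 113.1, 109.8 and 87.4 CPM in T-like cells of naïve, sham and SCI blood and at 12.4, 6.18 and 5.71 CPM in B-like cells, a log2 ratio of 3.18, 4.10 and 3.90. IL6ST was at 65.7, 79.0 and 95.4 CPM in T-like and at 8.65, 10.7 and 8.25 CPM in B-like cells, a log2 ratio of 2.90, 2.86 and 3.50. The B-like level was 10.9%, 5.63% and 6.54% of the T-like one for IL6R and 13.2%, 13.6% and 8.65% for IL6ST. Except for IL6ST in sham blood, these shares lay within the range of the T cell markers given above. IL10RA was present in both, with 211.0, 188.7 and 153.2 CPM in T-like and 68.6, 48.6 and 51.7 CPM in B-like cells. Its log2 ratio was 1.62, 1.95 and 1.56.

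Both feedback regulators were higher in T-like than in B-like cells. SOCS3, which binds gp130 and JAKs, was at 46.0, 50.5 and 53.8 CPM in T-like cells of naïve, sham and SCI blood, and in B-like cells it rested on 22, 4 and 25 counts (6.80, 1.65 and 7.93 CPM). Its B-like level was 14.8%, 3.26% and 14.8% of the T-like one, in sham and SCI blood within the range of the T cell markers. CISH, a STAT5 target that restrains IL-2 and T cell receptor signalling, was at 44.2, 38.7 and 57.1 CPM in T-like and 14.2, 14.8 and 12.1 CPM in B-like cells. The log2 ratios were 2.73, 4.77 and 2.73 for SOCS3 and 1.62, 1.36 and 2.22 for CISH.

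IL2RB, the beta chain of the IL-2 and IL-15 receptors, separated all 3 lymphocyte classes. NK-like cells held 465.7, 407.7 and 263.9 CPM in naïve, sham and SCI blood, from 17, 14 and 19 counts. T-like cells held 29.1, 27.2 and 21.4 CPM, and B-like cells 0.618, 2.06 and 1.59 CPM from 2, 5 and 5 counts. The B-like levels were 2.12%, 7.58% and 7.43% of the T-like ones, within the range of the T cell markers given above. The order NK-like, T-like, B-like was the same in each blood library. The log2 ratio of NK-like over T-like cells was 4.04 [3.20, 4.70], 3.96 [3.02, 4.67] and 3.66 [2.88, 4.29]. By the rule used, 39.3%, 42.7% and 31.3% of all genes tested were at least 2-fold higher in the few NK-like cells. With 0.5 counts added, a gene without a count in NK-like cells could pass, so that these shares can overstate how many genes were higher.

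Among the other genes, IL7R was lower in NK-like than in T-like cells in each blood library, with intervals that did not overlap. IL10RA was higher in NK-like cells of SCI blood, with a log2 ratio of 1.15 [0.48, 1.70], and its ratios in naïve and sham blood had intervals that include 0, as had those of IL2RG in all 3. IL2RG was at 328.7, 524.2 and 402.9 CPM and IL10RA at 328.7, 291.2 and 333.4 CPM in NK-like cells of naïve, sham and SCI blood, and IL7R at 328.7, 145.6 and 569.5 CPM from 12, 5 and 41 counts. IL6R and IL6ST each had 0, 1 and 0 counts, and the 3 counts that a count of 0 allows equal 82.2 CPM in naïve and 41.7 CPM in SCI blood. SOCS3 had 0, 1 and 5 counts, CISH 1, 0 and 2, IL4R 1, 0 and 4 and IL21R 2, 3 and 2. The restricted T cell markers summed to 25.6%, 13.8% and 16.2% of their T-like level in NK-like cells, and their part in these values was not tested.

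T-like cells formed 6 clusters, named after cell type markers and called by a leading gene. These were a CD8 T-like cluster led by NT5E, CD4 T-like clusters led by CCR10 and by FZD3, a Treg-like cluster led by FOXP3, a cytotoxic T-like cluster led by GZMH, and a T-like cluster led by NRP2 with no marker of a T cell state among its leading genes. The 8 listed markers of naïve T cells had a median of 2.22-fold over all other cells in the NRP2 cluster and 2.59-fold in the NT5E cluster. Since the clusters were built from all variable genes, differences between them are a description.

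**Figure D2:**
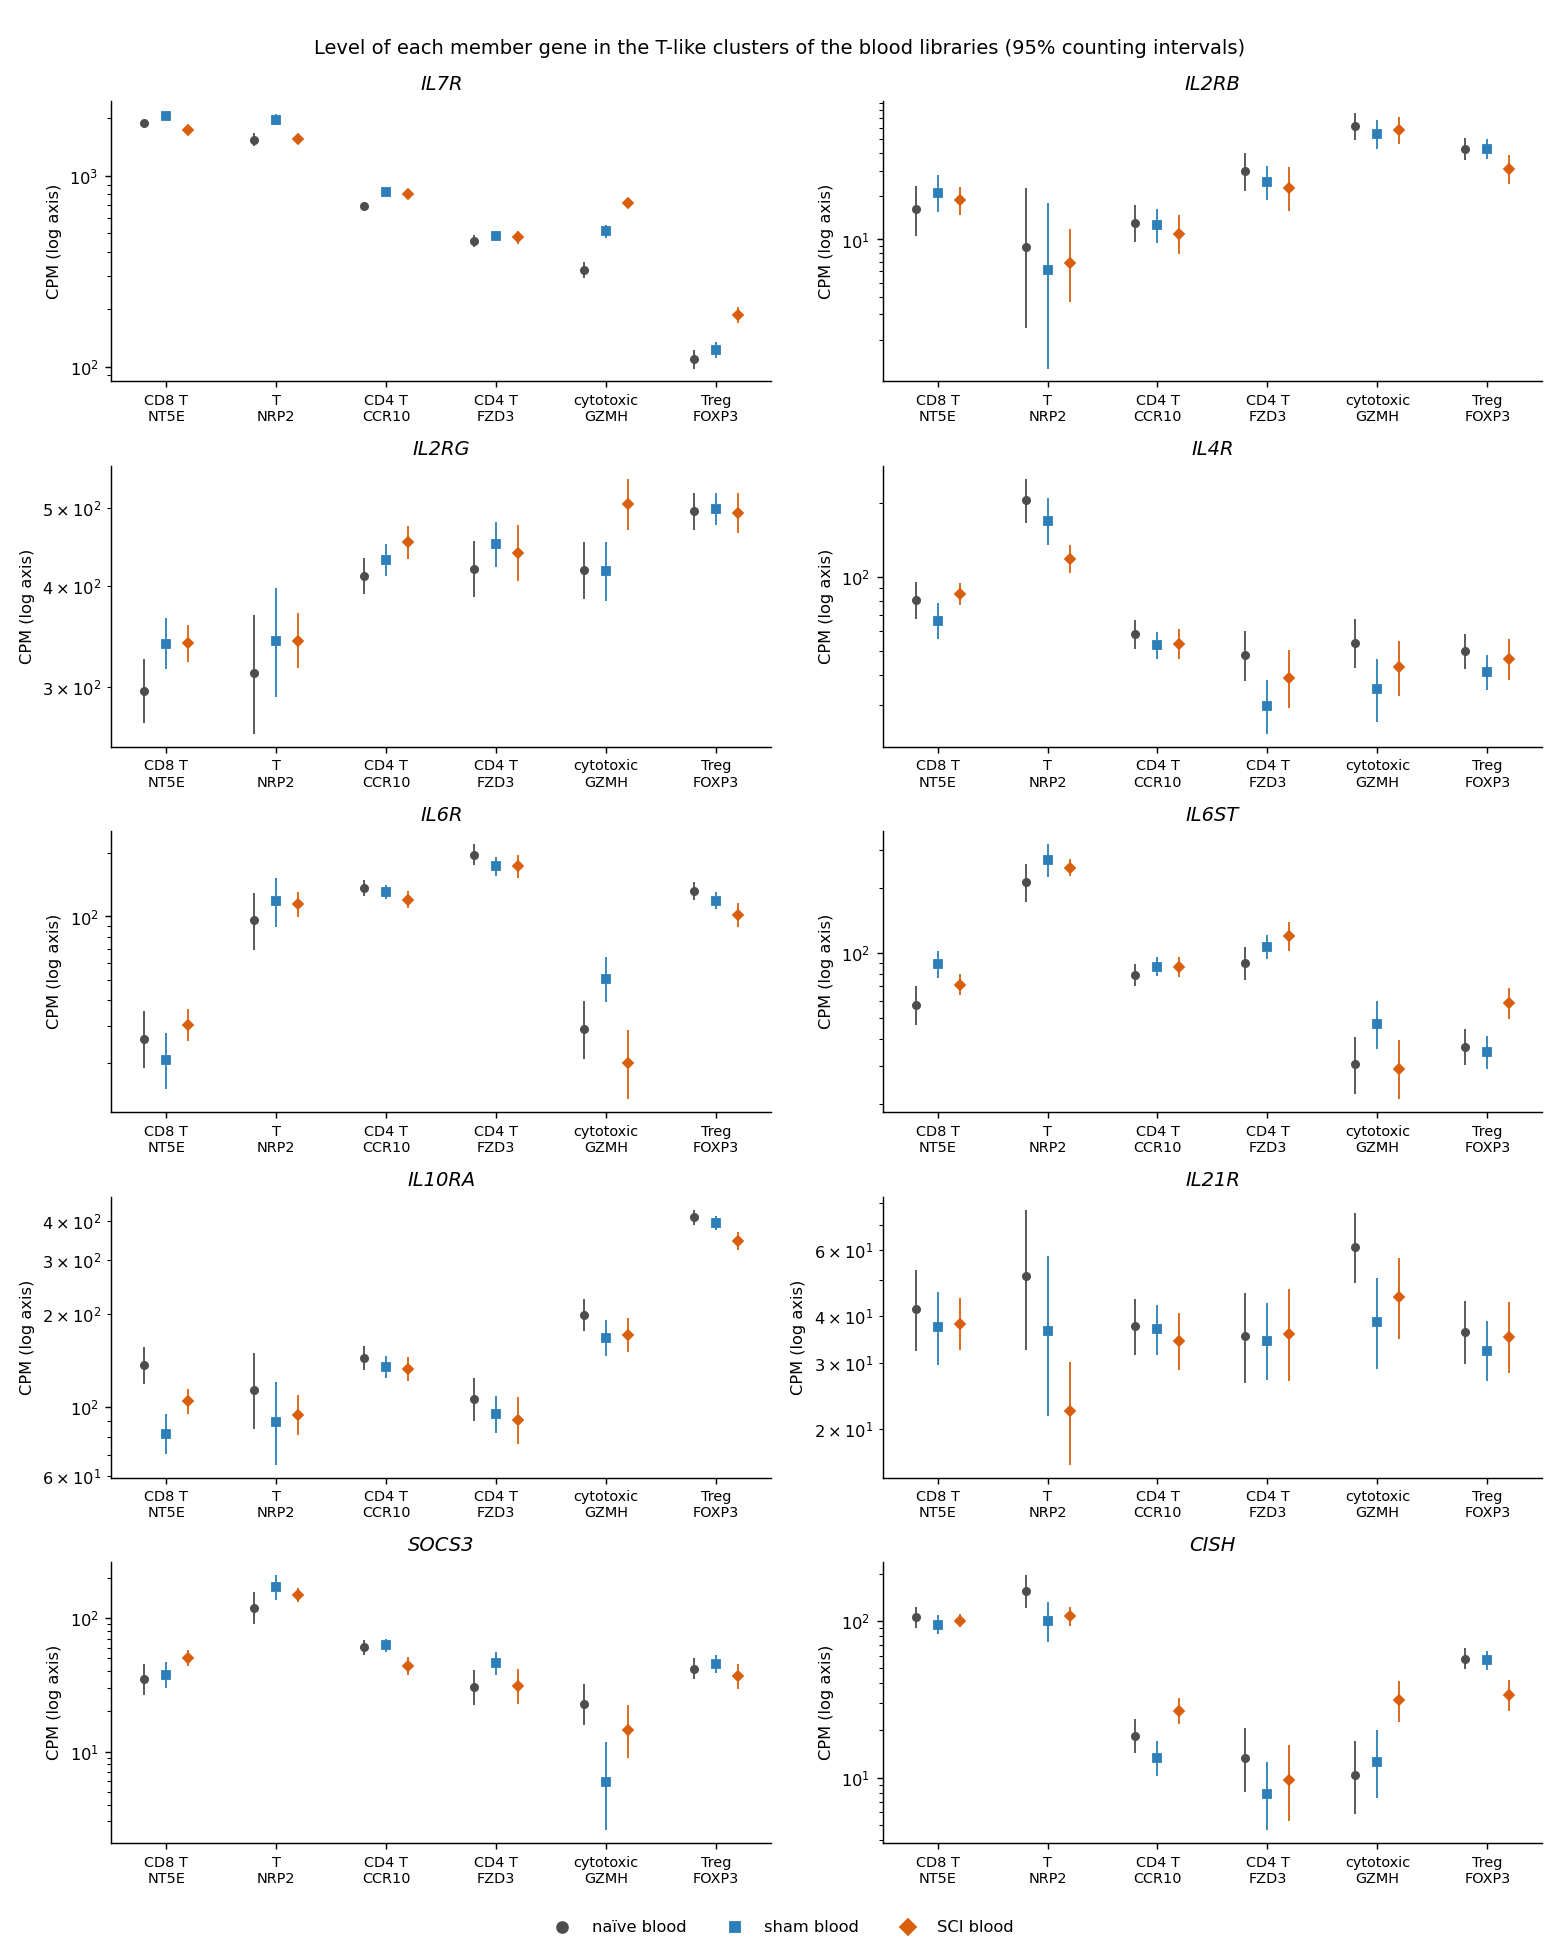
Level of each of the 10 genes in CPM (log axis) in the 6 T-like clusters of naïve, sham and SCI blood, with exact 95% Poisson intervals. IL7R, IL4R, IL6ST, SOCS3 and CISH reach high levels in the cluster led by NRP2, IL2RB in the cytotoxic cluster, IL10RA in the Treg-like cluster and IL6R in the cluster led by FZD3.

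IL7R and IL2RB ran in near opposite orders over the T-like clusters. IL7R was highest in the NT5E cluster (1888, 2064 and 1730 CPM in naïve, sham and SCI blood) and in the NRP2 cluster (1547, 1969 and 1554 CPM), followed by the CCR10 cluster (697.1, 821.8 and 801.4 CPM). It was lowest in the Treg-like cluster, at 109.5, 122.1 and 186.6 CPM. IL2RB was highest in the cytotoxic cluster (61.7, 54.3 and 58.1 CPM) and next in the Treg-like cluster (43.0, 43.0 and 31.1 CPM). In the NRP2 cluster IL2RB had only 4, 3 and 13 counts (8.92, 6.10 and 6.90 CPM).

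The intervals of the NT5E and NRP2 clusters overlapped for IL7R in sham blood but not in naïve or SCI blood. For IL2RB, the cytotoxic and Treg-like intervals overlapped in naïve and sham blood and not in SCI blood. IL2RG varied least, between 296.8 CPM in the NT5E cluster of naïve blood and 505.0 CPM in the cytotoxic cluster of SCI blood.

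IL4R and IL6ST were highest in the NRP2 cluster, at 205.1, 168.8 and 119.0 CPM and at 211.8, 268.4 and 248.0 CPM in naïve, sham and SCI blood. The NT5E cluster came second for IL4R, at 80.4, 66.4 and 85.5 CPM. IL6R was highest in the FZD3 cluster (197.4, 173.6 and 174.2 CPM) and low in the NT5E (26.2, 20.7 and 30.4 CPM) and cytotoxic clusters (29.1, 50.6 and 20.1 CPM). In between were the CCR10 (136.9, 131.1 and 120.4 CPM), Treg-like (132.3, 119.1 and 101.7 CPM) and NRP2 clusters (95.9, 118.0 and 114.2 CPM). IL6ST was present in the NT5E cluster at 57.4, 88.5 and 71.3 CPM.

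IL10RA was highest in the Treg-like cluster, at 411.6, 394.1 and 345.4 CPM in naïve, sham and SCI blood, and second in the cytotoxic cluster, at 198.9, 167.3 and 171.6 CPM. IL21R lay between 22.3 CPM in the NRP2 cluster of SCI blood and 61.0 CPM in the cytotoxic cluster of naïve blood. The intervals of these clusters did not overlap in SCI blood, where the cytotoxic cluster held 45.0 CPM. Of the regulators, SOCS3 was highest in the NRP2 cluster (120.4, 170.8 and 149.8 CPM) and lowest in the cytotoxic cluster (22.9, 5.95 and 14.5 CPM). CISH was highest in the NRP2 (156.0, 99.7 and 107.3 CPM) and NT5E clusters (106.0, 94.9 and 100.7 CPM) and lowest in the FZD3 cluster (13.3, 7.91 and 9.68 CPM), except that in naïve blood the cytotoxic cluster was lower at 10.4 CPM. The intervals of FZD3 and cytotoxic clusters overlapped in naïve blood.

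Blood was then compared between conditions. In T-like cells, IL7R was the only one of the 10 genes past 1.5-fold between SCI and naïve blood, where 12.9% of the 12996 genes tested were past that fold in either direction, 6.29% higher and 6.58% lower. Its log2 ratio was 0.60 [0.56, 0.64], which is just past the limit. Between sham and naïve blood 0 of the 10 genes were past 1.5-fold, against 8.11% of all genes, and the same was so between SCI and sham blood, against 11.5%. The naïve, sham and SCI comparisons share libraries.

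**Figure D3:**
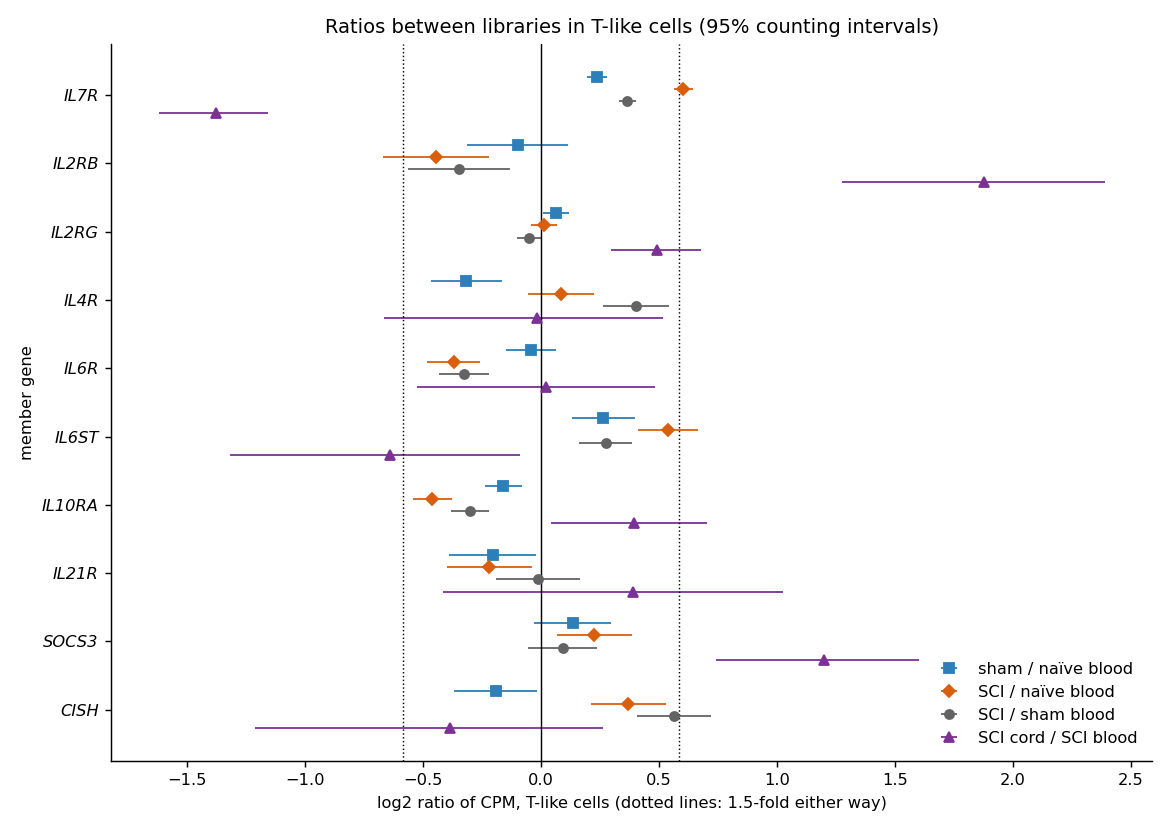
Log2 ratio of CPM in T-like cells for the 10 genes in 4 comparisons (sham over naïve blood, SCI over naïve blood, SCI over sham blood, SCI cord over SCI blood), with 95% conditional binomial intervals for counting error; dotted lines mark 1.5-fold either way. In blood IL7R in SCI over naïve blood lies past a line, and in the cord IL2RB and SOCS3 lie above and IL7R and IL6ST below.

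The remaining T-like ratios of SCI over naïve blood lay within the limit. IL6ST had a log2 ratio of 0.54 [0.41, 0.67] and CISH of 0.37 [0.21, 0.53]. IL10RA had -0.46 [-0.54, -0.38], IL2RB -0.45 [-0.67, -0.22] and IL6R -0.37 [-0.48, -0.26]. IL2RG (0.01) and IL4R (0.08) were near 0. The median of the 10 genes was 0.05, against -0.02 over all genes.

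Sham blood lay between naïve and SCI blood for IL7R, IL6ST and SOCS3, which rose, and for IL10RA, IL2RB, IL6R and IL21R, which fell. With the T-like clusters given equal weights, the SCI over sham ratios of IL7R, IL6ST and SOCS3 changed sign, so that this order did not hold for them. The sham over naïve log2 ratio was 0.24 [0.20, 0.28] for IL7R, 0.26 [0.13, 0.40] for IL6ST and -0.16 [-0.24, -0.08] for IL10RA. In the same comparison IL4R had the most negative value, -0.32 [-0.47, -0.17]. For SCI over sham blood, CISH had the highest value at 0.56 [0.41, 0.72] and IL2RB the lowest at -0.35 [-0.56, -0.13].

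The make-up of the T-like class moved with these values. The NT5E cluster was 10.4%, 13.3% and 24.2% of all kept cells in naïve, sham and SCI blood, and the NRP2 cluster 2.72%, 2.68% and 9.94%. These were the clusters with the highest IL7R. The Treg-like cluster, with the lowest IL7R and the highest IL10RA, was 17.6%, 22.9% and 12.2%. When the 6 clusters were given equal weights, the SCI over naïve log2 ratio of IL7R was 0.12 and 0 of the 10 genes were past 1.5-fold. T-like cells of naïve blood also held more plasma cell RNA, with 380.5 CPM of the plasma cell list against 33.1 and 28.3 CPM in sham and SCI blood, and its part in the values was not tested.

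Within clusters, IL7R was past 1.5-fold between SCI and naïve blood only in the cytotoxic and Treg-like clusters. In the cytotoxic cluster it went from 320.9 CPM in naïve to 512.2 in sham and 723.6 CPM in SCI blood, a SCI over naïve log2 ratio of 1.17 [1.01, 1.33]. In the Treg-like cluster the log2 ratio was 0.77 [0.56, 0.98]. In the other clusters it was -0.13 (NT5E), 0.01 (NRP2), 0.20 (CCR10) and 0.06 (FZD3). Of the cytotoxic cluster 9.43% of cells were marked as possible doublets, more than in the other T-like clusters.

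**Figure D4:**
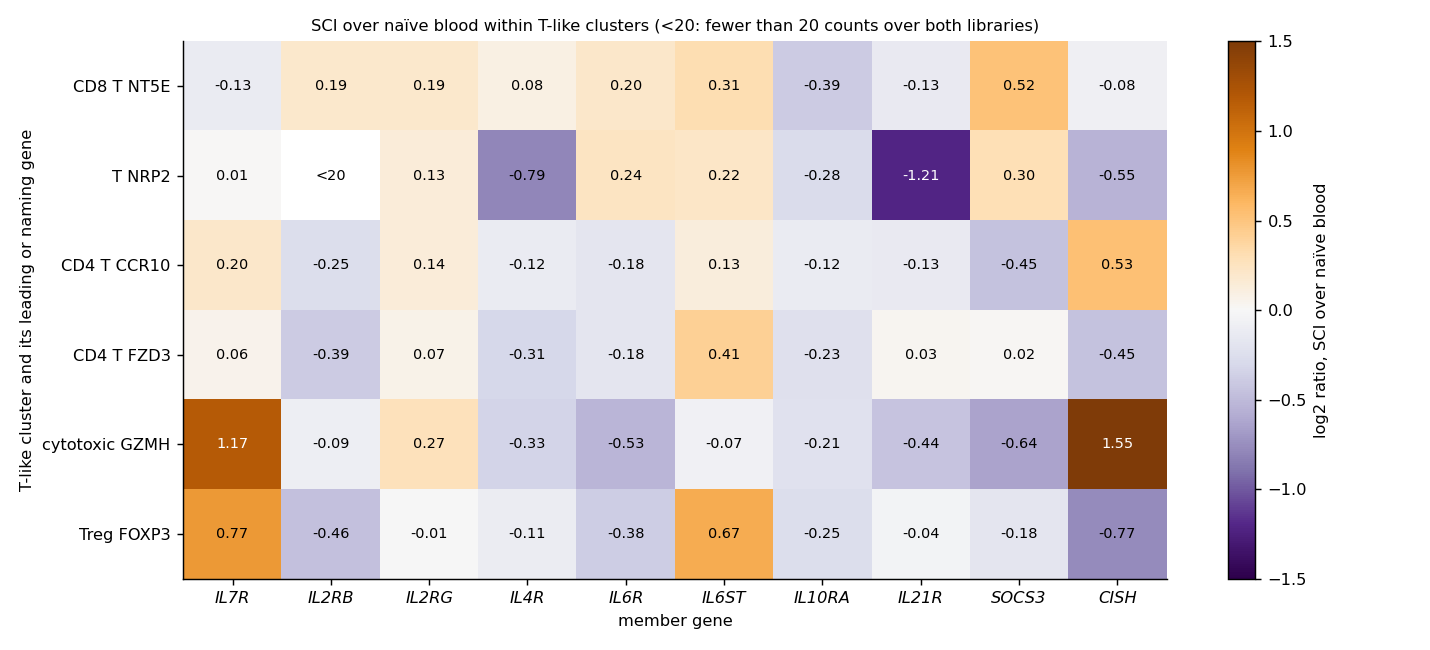
Log2 ratio of SCI over naïve blood for the 10 genes in each of the 6 T-like clusters, as a heat map with the value in each cell and "<20" where both libraries together held fewer than 20 counts. IL7R stands out in the cytotoxic (1.17) and Treg-like (0.77) clusters and CISH has opposite signs in them (1.55 and -0.77).

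CISH differed in direction between the same clusters. It was at 10.4, 12.6 and 31.1 CPM in the cytotoxic cluster of naïve, sham and SCI blood, from 15, 17 and 45 counts, with a SCI over naïve log2 ratio of 1.55 [0.71, 2.53]. In the Treg-like cluster it was at 57.5, 56.0 and 33.6 CPM, with a log2 ratio of -0.77 [-1.18, -0.38]. The difference between the clusters was not tested. In all, 3 of 10 genes were past 1.5-fold between SCI and naïve blood in the cytotoxic cluster (14.6% of all genes tested there) and 3 of 10 in the Treg-like cluster (10.1%).

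The third gene was SOCS3 in the cytotoxic cluster, at -0.64 [-1.52, 0.18] from 33 and 21 counts, and IL6ST in the Treg-like cluster, at 0.67 [0.29, 1.05]. IL6ST stood at 36.7, 34.6 and 58.4 CPM in the Treg-like cluster of naïve, sham and SCI blood. In the NRP2 cluster 2 of the 9 genes tested were past 1.5-fold, against 17.9% of all genes, namely IL4R at -0.79 [-1.14, -0.42] and IL21R at -1.21 [-1.97, -0.40]. None of the 10 genes were past 1.5-fold in the NT5E, CCR10 and FZD3 clusters, where 10.8%, 9.95% and 12.4% of all genes were.

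Within-cluster differences also arose between sham and naïve blood. In the cytotoxic cluster 6 of 10 genes were past 1.5-fold, against 14.2% of all genes, with IL7R at 0.67 [0.50, 0.85], IL6R at 0.79 [0.22, 1.39], IL6ST at 0.61 [0.04, 1.21], IL4R at -0.62, IL21R at -0.65 and SOCS3 at -1.88. SOCS3 rested there on 33 counts in naïve and 8 in sham blood. The cytotoxic cluster held 490, 295 and 414 cells in naïve, sham and SCI blood at resolution 0.8. At resolution 1.5 a cluster of that name held 381, 161 and 295 cells. Its make-up may differ between libraries, and the part of this in these values was not tested. In the NT5E cluster 2 of 10 were past it, against 9.99% of all genes, with IL6ST at 0.62 [0.26, 1.00] and IL10RA at -0.73 [-1.03, -0.44]. In the FZD3 cluster 2 of 10 were, against 10.9% of all genes, with IL4R at -0.69 [-1.20, -0.18] and CISH at -0.75 [-1.78, 0.25] from 17 and 20 counts. In the NRP2 cluster 1 of 9 was, against 16.3%, with CISH at -0.64 [-1.20, -0.10]. None of the 10 genes were past 1.5-fold in the Treg-like and CCR10 clusters, where 8.35% and 8.06% of all genes were.

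In B-like cells 9 of the 10 genes had enough counts to be compared, since IL2RB did not reach 20. Between sham and naïve blood 3 genes were past 1.5-fold, against 10.4% of all genes, namely IL7R at 1.43 [0.81, 2.08], IL6R at -0.97 [-1.96, -0.11] and SOCS3 at -1.91 [-4.04, -0.49]. Between SCI and naïve blood only IL6R was, at -1.09 [-2.00, -0.28], against 11.2%. Between SCI and sham blood IL7R was at -1.01 [-1.60, -0.44] and SOCS3 at 2.13 [0.73, 4.25], against 10.2%. The SOCS3 values turn on 4 counts in sham blood. Directions were not stable here: for sham over naïve blood IL7R was at -0.71 without the filter on median absolute deviations and at -0.66 at a clustering resolution of 0.4, and SOCS3 at 0.51 with a marker gate in place of clusters. For SCI over sham blood the same settings gave 0.84 and 0.76 for IL7R and -0.46 for SOCS3.

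The IL6R difference in B-like cells moved with a small B-like cluster led by FSCN1. This cluster held 227, 59 and 38 cells in naïve, sham and SCI blood and 38.0, 24.9 and 15.0 CPM of IL6R, from 31, 8 and 2 counts. The larger B-like cluster held 3.72, 3.32 and 5.30 CPM. With the FSCN1 cluster left out, a choice made after seeing the data, the SCI over naïve log2 ratio of IL6R was 0.48. IL2RG stayed even in B-like cells, with log2 ratios of 0.08, 0.01 and -0.07 for sham over naïve, SCI over naïve and SCI over sham blood.

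T-like cells of the injured cord were compared with those of SCI blood. Only 65 cord cells were available, and 36.9% of the 12050 genes tested were past 1.5-fold, so that 4 of 10 genes past it was close to the background. IL2RB and SOCS3 were higher in the cord and IL7R and IL6ST lower, with 21.6% of all genes higher and 15.3% lower. IL2RB was at 77.4 CPM in the cord and 21.4 CPM in SCI blood, a log2 ratio of 1.88 [1.28, 2.39], with 31 cord counts spread over 20 cells. SOCS3 was at 122.3 and 53.8 CPM, a log2 ratio of 1.20 [0.74, 1.60], with 49 counts in 24 cells.

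IL7R was at 389.5 CPM in cord and 1017 CPM in blood, a log2 ratio of -1.38 [-1.62, -1.16], with 156 counts in 35 cells. IL6ST was at 59.9 and 95.4 CPM, a log2 ratio of -0.64 [-1.32, -0.09] that rested on 24 cord counts. The other genes lay within 1.5-fold, with IL2RG at 0.49 [0.30, 0.68], IL10RA at 0.39 and IL4R at -0.02. IL6R was at 87.4 CPM in both libraries.

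**Figure D5:**
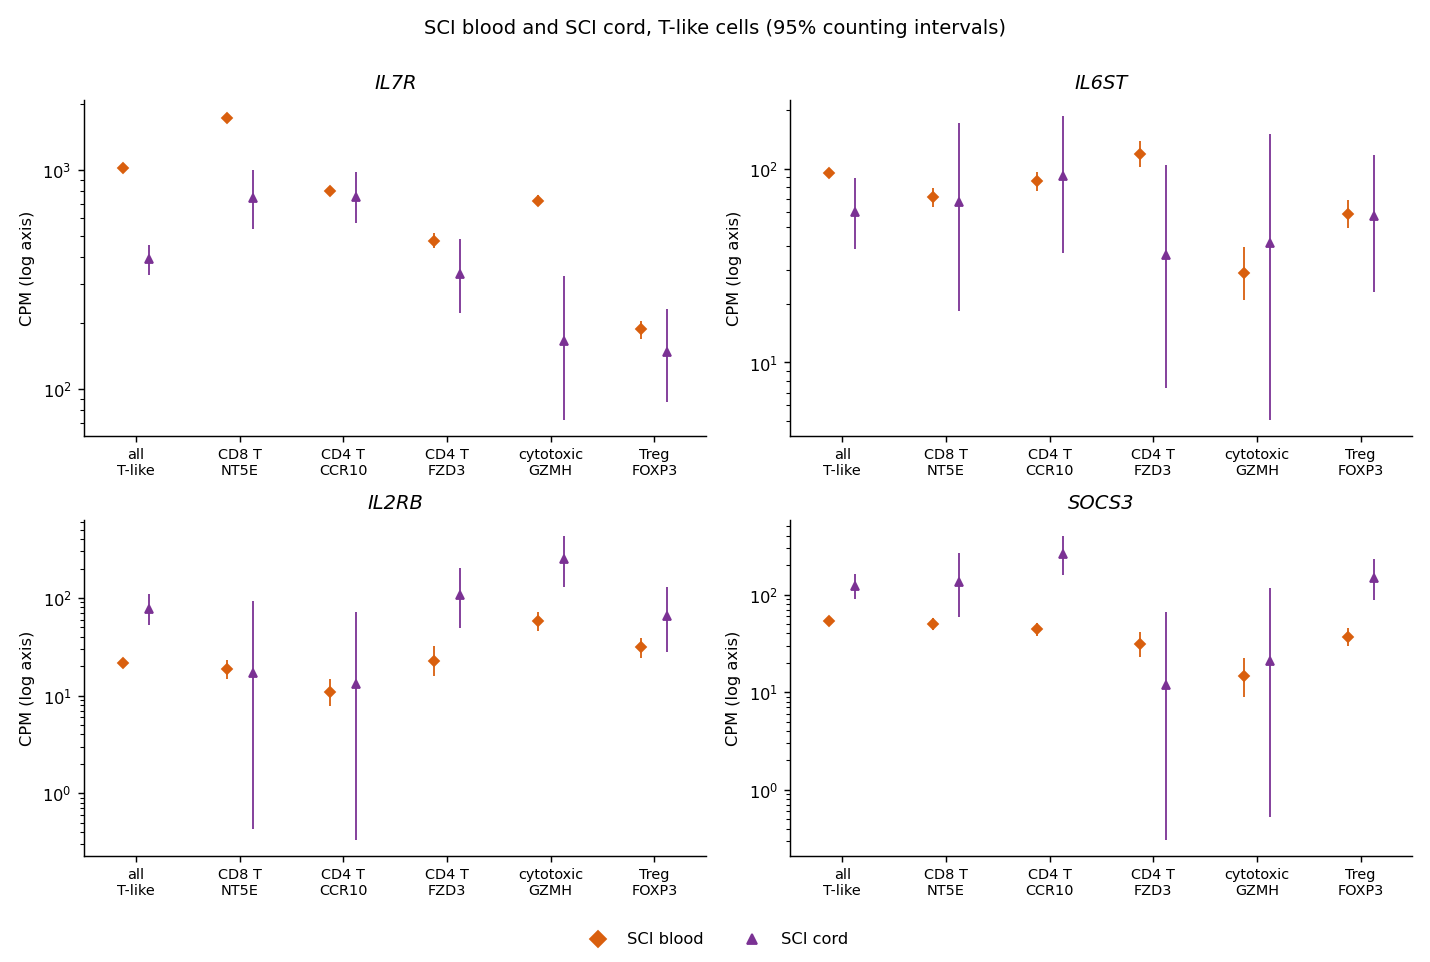
Levels of IL7R, IL6ST, IL2RB and SOCS3 in CPM (log axis) in SCI blood and SCI cord, for all T-like cells and for the 5 T-like clusters with at least 10 cord cells, with exact 95% Poisson intervals. IL7R lies lower in the cord in the NT5E and cytotoxic clusters, and SOCS3 higher in the CCR10, Treg-like and NT5E clusters.

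Within clusters the cord values rested on 10 to 17 cells each, and 56.4%, 52.1%, 44.9%, 48.4% and 45.8% of all genes tested were past 1.5-fold in the cytotoxic, NT5E, Treg-like, CCR10 and FZD3 clusters. In the NT5E cluster, with 0.5 counts added, a gene without a cord count could pass as higher, so that its share can be too large. IL2RB was at 249.1 CPM in the cord against 58.1 CPM in blood in the cytotoxic cluster (12 cord counts, log2 ratio 2.15 [1.09, 2.98]) and at 107.6 against 22.8 CPM in the FZD3 cluster (9 counts, 2.29 [0.99, 3.33]). In the Treg-like cluster IL2RB was at 65.4 CPM in the cord, from 8 counts, against 31.1 CPM in blood. In the NT5E and CCR10 clusters it had 1 cord count each. SOCS3 was higher in the CCR10 cluster at 2.59 [1.81, 3.23], the Treg-like cluster at 2.02 [1.17, 2.73] and the NT5E cluster at 1.51 [0.19, 2.43]. In the FZD3 and cytotoxic clusters SOCS3 had 1 cord count each.

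IL7R was lower in the NT5E cluster (741.6 against 1730 CPM, -1.21 [-1.68, -0.80]) and in the cytotoxic cluster (-2.04 [-3.34, -1.14], from 8 cord counts). In the CCR10, Treg-like and FZD3 clusters its log2 ratio was -0.07, -0.31 and -0.48. The NRP2 cluster, which is high in IL7R and IL6ST, had 1 cell in the cord. With equal weights over the 5 clusters that could be compared, the cord over blood log2 ratios were -0.86 for IL7R, 1.69 for IL2RB, 1.71 for SOCS3 and -0.28 for IL6ST.

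Other signals moved with the cord comparison. The cord was digested with papain and blood was not. Of 14 genes of a tissue dissociation list 8 were at least 1.5-fold higher in cord T-like cells and 0 lower, with a sum of 8516 against 6115 CPM. Of all genes tested, 21.6% were higher and 15.3% lower. The restricted NK cell list summed to 479.4 against 8.81 CPM, all of it from XCL1 and XCL2, with KLRF1, NCAM1, SH2D1B and KLRC1 at 0 counts in the cord. The part of both in these values was not tested. The basophil or mast cell list summed to 282.1 against 3.09 CPM, all in 1 of the 65 cells. Without the T-like cells that held such a UMI, the log2 ratios were 1.89 for IL2RB, 1.05 for SOCS3, -1.33 for IL7R and -0.66 for IL6ST.

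The other genes of the pathway were taken from fixed lists of receptor chains, JAKs, STATs, feedback regulators, target genes and ligands. Between SCI and naïve blood, T-like cells had 0 genes higher and 2 lower of 4 further gamma chain family receptors, 1 higher and 0 lower of 5 further receptors of the gp130 and IL-10 families, and none of 4 JAKs past 1.5-fold. Of 15 feedback regulators none were past it, and of 13 targets 1 was higher and 3 lower. Over all genes tested in this comparison, 6.29% were higher and 6.58% lower. IL2RA, the alpha chain of the IL-2 receptor, was at 28.3 against 61.5 CPM, a log2 ratio of -1.12. It is also among the leading genes of the Treg-like cluster, whose share of SCI blood is given above. The part of that share in the IL2RA value was not tested. BCL2, a survival gene, was at 98.7 against 62.0 CPM (0.67). PIM3, BCL3 and BATF were at -0.66, -0.64 and -0.63.

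Between sham and naïve blood none of the JAKs, STATs, feedback regulators and 13 targets were past 1.5-fold in T-like cells, against 8.11% of all genes. Between SCI and sham blood IL2RA was at -0.90 and STAT4 at 0.66. In the cord none of the 4 JAKs were past 1.5-fold, while 3 of 15 feedback regulators were higher and 0 lower. In the same comparison 4 of 13 targets were higher and 2 lower, and 1 of 7 STATs was higher and 2 lower. Of all genes tested there, 21.6% were higher and 15.3% lower. SOCS1, a regulator of interferon and gamma chain signalling, was at 209.7 CPM in cord against 36.6 CPM in SCI blood T-like cells, a log2 ratio of 2.52 [2.17, 2.85]. IL2RA was at 104.9 against 28.3 CPM (1.91). STAT4 (1.08), PIAS3 (1.00), LTA (0.98), BCL3 (0.95) and BATF (0.69) were also higher, and STAT2 (-0.95), STAT5B (-0.95) and IL11RA (-0.69) lower.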

How the data were processed

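Per the labels and the methods of the study, the authors sorted human CD45+ cells, prepared droplet-based 3′ libraries and counted UMIs with Cell Ranger 3.1.0 against the human GRCh38 and mouse mm10 genomes together. They deposited UMI counts per gene and barcode without normalisation, as whole numbers. Everything else was computed here. The 10 genes, the gene lists and the comparisons were chosen with earlier results of these data known.

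Barcodes with over 50% human UMIs were kept (6713, 4972, 6283 and 138 in the order of naïve blood, sham blood, SCI blood and cord). Those over 3 median absolute deviations (MADs) low in UMIs or genes, or high in mitochondrial or ribosomal share, were removed, leaving 6332, 4659, 5937 and 118 cells after doublets, with median depths of 3699.5, 5234, 4655 and 9331 UMIs. The automatic threshold of Scrublet marked 0, 3, 185 and 6 barcodes, so the highest scores at 0.8% per 1000 barcodes were marked instead (361, 198, 316 and 0), and of these only barcodes with over 3000 genes were removed (62, 76, 94 and 0).

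Cells were clustered (2000 variable genes, 30 components, 15 neighbours, Leiden resolution 0.8, 15 clusters) with Python 3.11.15, scanpy 1.11.5, numpy 2.4.6, scipy 1.17.1 and pandas 2.3.3, and named from marker lists of 14 classes. A name needed 3 markers detected in at least 10% of cells. After the clusters had been seen, those with over 50% marked doublets were left unnamed, and a T cell name was made to require summed T cell markers of at least 0.5 times the level of all cells. A cluster of 118 cells and a cluster of 28 cells stayed unnamed. Names are rebuilt and may differ from those of the study.

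Counts were summed per class and library and scaled to CPM without ribosomal and mitochondrial genes. For log2 ratios 0.5 counts were added, and a gene was compared where the pair of libraries held 20 counts or more. Levels carry exact Poisson, ratios conditional binomial and shares exact binomial intervals. Shares were thinned to 1000 UMIs per cell. Where a count was 0, the limit given is 3 counts. Named genes were all 10 genes, pathway genes past 1.5-fold with at least 100 counts, up to 10 by size per comparison of T-like cells, and the 3 genes most like each of the 10 (those with at least 1000 counts in all). Genes outside this rule are named only as cell type markers or cluster names, or to locate a list's signal. The calculation was tested on simulated data. edgeR 4.0.16 under R 4.3.3 was used for TMM factors alone, and matplotlib 3.10.9 for figures. In all, 16 alternatives were run. Mouse cells and cells of other classes entered no comparison, and no sequences are shown. A pathway gene that met the rule for named genes is not reported here.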

Additional observations from a re-analysis of the deposited data

How the results depend on the processing

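No paired analysis was possible because each condition had 1 library. The count of genes at least 2-fold higher in T-like than in B-like cells lay between 7 and 9 in all 16 alternatives, and that in the other direction was 0 in each. For the genes past 1.5-fold in T-like cells, SCI over naïve blood (1 gene), the count was 0 with a marker gate in place of clusters, with ribosomal and mitochondrial genes in the total, with clusters at equal weights and with the mean of per-cell CPM, and 3 with UMIs per cell or thinned cells. The IL7R log2 ratio there ranged from 0.12 to 0.88 over the alternatives. Sham over naïve (0) gave 3 with UMIs per cell, and SCI over sham (0) gave 1 with UMIs per cell or thinned cells. Cord over SCI blood (4) gave 7 with UMIs per cell and 9 with thinned cells. In B-like cells, sham over naïve (3) gave 6 with UMIs per cell, 1 with thinned cells and 1 without the FSCN1 cluster. SCI over naïve (1) gave 2 at resolution 1.5, with UMIs per cell and without a filter on low counts. SCI over sham (2) gave 1 at resolution 1.5, 0 with the marker gate, 4 with UMIs per cell and 1 with thinned cells.

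Some values changed sign, and those named here are not all of them. In B-like cells, the IL7R log2 ratio was -0.71 without the MAD filter and -0.66 at resolution 0.4 for sham over naïve blood, and 0.84 and 0.76 for SCI over sham blood. SOCS3 in B-like cells was 0.51 and -0.46 with the marker gate in the same comparisons. IL6R in B-like cells was 0.48 for SCI over naïve blood without the FSCN1 cluster. In T-like cells, UMIs per cell changed the sign of 6 of the 10 genes for sham over naïve blood (IL2RB, IL4R, IL6R, IL10RA, IL21R and CISH). Equal weights of clusters changed it for 5 of 10 in SCI over sham blood (IL7R, IL2RG, IL4R, IL6ST and SOCS3). They also changed it for IL4R and CISH in SCI over naïve blood. Thinned cells changed it for IL2RG, IL21R and SOCS3 in SCI over sham blood. IL6ST in cord over blood T-like cells was 0.25 per cell. The cause was not tested. UMIs per cell follow depth: the median log2 ratio over all genes moved by 0.52 for sham over naïve and by 0.89 for cord over SCI blood T-like cells. Leaving out the FSCN1 cluster, and leaving out T-like cells with a basophil or mast cell UMI, were chosen after seeing the data, and the other alternatives were not.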

Other observations

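Outside lymphocytes, the feedback regulators were highest in monocyte-like cells. CISH was at 243.6, 224.7 and 182.6 CPM in these cells of naïve, sham and SCI blood, from 140, 94 and 18 cells. SOCS3 was at 109.0, 202.5 and 291.0 CPM, and its intervals did not overlap between naïve and either operated group. IL6R was at 125.6, 142.4 and 165.4 CPM and IL6ST at 93.6, 103.5 and 114.1 CPM, with intervals that overlapped between all 3 libraries. The restricted T cell list reached 5.68%, 12.1% and 8.64% of its T-like level in the same cells.

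Basophil-like or mast-like cells carried IL10RA at 406.2, 338.3 and 322.5 CPM in naïve, sham and SCI blood, and held 0 IL21R counts in all 4 libraries, which allows up to 11.2, 5.43 and 6.28 CPM in the blood libraries. Plasma-like cells, of which 386 came from naïve blood and 4 from the other libraries, held 74.5 CPM of IL6R and 76.3 CPM of IL2RG in naïve blood. Cycling cells held 34.6, 45.9 and 46.0 CPM of IL2RB and 92.1, 83.1 and 160.7 CPM of IL7R in naïve, sham and SCI blood.

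For each of the 10 genes, the genes with the most similar pattern were taken by Pearson correlation of log2(CPM + 1) over 32 sums of a class or cluster in a blood library, among 7450 genes. Only sums of at least 50 cells were used, so that none came from NK-like cells. These sums share libraries, depth and cells, so that the values are descriptions. The highest were NOSIP (0.947), TCF7 (0.940) and RBL2 (0.937) for IL7R, RORA (0.890), SIRPG (0.888) and PLEKHF1 (0.887) for IL2RB, and CD52 (0.938), KDM5B (0.897) and MOB2 (0.897) for IL2RG. For IL4R they were RBMS1 (0.857), TMOD3 (0.833) and ARFGEF1 (0.823), and for IL21R MCUB (0.941), GLG1 (0.917) and RGCC (0.912). IL6R was closest to CD4 (0.844), LPAR6 (0.828) and TMEM173 (0.802), and IL6ST to SERINC5 (0.896), SORL1 (0.882) and TCEA3 (0.881). IL10RA was closest to SNX20 (0.859), ANXA11 (0.849) and PLCB2 (0.845). SOCS3 was closest to DSTYK (0.829), RFLNB (0.825) and ATP6AP2 (0.805), and CISH to UPP1 (0.916), PTGER2 (0.863) and HRH2 (0.855).

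In the cord, the 9 B-like cells held 70 IL7R counts in 2 cells, 62 of them in 1 cell, so that no level for cord B-like cells is drawn from them.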
